A study of Mus musculus with 36 samples.

Results

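The Notch genes described here are 10 genes of 1 signalling pathway that the array measures: the receptors *Notch1*, *Notch2* and *Notch4*, the ligands *Dll1*, *Dll3*, *Jag1* and *Jag2*, the inhibitor *Numb*, and the target genes *Hes1* and *Hey1*. They were found by the gene symbol of the probe annotation, and each of the 10 has 1 of the 8129 oligonucleotides. The study followed quadriceps muscle of BSG mice, which lack beta-sarcoglycan, and of GSG mice, which lack gamma-sarcoglycan, at 9 ages: 1 week, 2.5 and 4 weeks, then every second week through 6, 8, 10 and 12 to 14 weeks, and 20 weeks. Both proteins belong to the complex that anchors the membrane of muscle fibres, and both strains are models of limb-girdle muscular dystrophy. There were 2 mice per age and strain, and their RNA was hybridised on 36 two-colour arrays in 4 closed loops, 2 per strain, in which mice of neighbouring ages share an array and the mouse of 20 weeks shares one with the mouse of 1 week. By the study's account, most ages were filled with littermates, so mice of one age may share a litter. It adds that the time of day of sacrifice was alike within a strain and age but differed between strains and ages. Differences between ages or strains therefore cannot be told apart from the time of day. WT and MDX mice were not analysed here, so a change with age cannot be told apart from normal growth. Every level below is a log ratio, in log2 units, against the 1-week mouse of the same loop, so that levels say nothing of the abundance of one gene relative to another or of one strain relative to the other at 1 week. The sources state no base for the logarithm and do not say which channel is on top of a ratio. The direction used was the later over the earlier age on an array, and 1 week over 20 weeks on the array that closes a loop. It is likely: with it, 7 of 13 measured genes of newborn muscle were called lower at 20 weeks in BSG and 7 of 13 in GSG. In each strain 0 were called higher. Called or not, 10 of 13 lay below 1 week in BSG and 11 of 13 in GSG. The newborn muscle list was chosen with earlier results of these data known, so these counts are a check of limited weight. By quantitative PCR, a separate method, the paper reports a sharp drop of *Dlk1*, a gene of this list, after the first age.

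Notch receptors sit in the membrane and are activated by Delta-like and Jagged ligands on a neighbouring cell. Cleavage by ADAM proteases and gamma-secretase then frees the intracellular domain, which enters the nucleus, joins the DNA-binding protein RBPJ and switches on genes of the Hes and Hey families of repressors. In skeletal muscle the pathway is known for holding satellite cells, the stem cells of the tissue, in quiescence and for delaying the differentiation of myoblasts, with *Dll1* on myogenic cells as a ligand and *Numb* as an intracellular inhibitor of the receptor. In vessels, Notch1 and Notch4 act in endothelium and Notch3 in the smooth muscle and pericytes around it.

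RBPJ reads the letters GTGGGAA, and the upstream sequences of the genes the results turn on are shown with those of target genes that hold this motif. The sequences are the 250 bases before the annotated start from RefSeq (build GRCm38.p6), 5′ to 3′ on the strand of the gene, with GTGGGAA or its reverse complement TTCCCAC in capitals. *Hes5* (chr4:154960673-154960922, plus strand) and *Hey2* (chr10:30842784-30843033, minus strand) are targets, *Dll1* has 2 annotated starts (chr17:15375824-15376073 and chr17:15376933-15377182, minus strand), and *Notch3* (chr17:32166891-32167140, minus strand) is a receptor.
Hes5: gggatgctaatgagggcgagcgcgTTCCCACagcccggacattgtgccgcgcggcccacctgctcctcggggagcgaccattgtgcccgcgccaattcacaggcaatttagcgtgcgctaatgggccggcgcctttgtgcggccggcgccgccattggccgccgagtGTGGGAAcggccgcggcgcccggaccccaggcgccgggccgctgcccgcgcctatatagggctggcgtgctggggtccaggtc
Hey2: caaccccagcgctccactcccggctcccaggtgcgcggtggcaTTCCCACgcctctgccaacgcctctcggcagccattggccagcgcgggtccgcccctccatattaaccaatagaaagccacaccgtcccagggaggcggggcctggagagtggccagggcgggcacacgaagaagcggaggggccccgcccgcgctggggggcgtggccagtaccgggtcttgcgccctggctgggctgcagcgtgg
Dll1, chr17:15375824-15376073: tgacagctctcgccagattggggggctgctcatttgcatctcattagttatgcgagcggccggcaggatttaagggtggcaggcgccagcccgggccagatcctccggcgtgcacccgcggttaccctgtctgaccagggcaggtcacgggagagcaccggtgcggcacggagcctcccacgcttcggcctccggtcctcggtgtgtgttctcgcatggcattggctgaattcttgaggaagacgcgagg
Dll1, chr17:15376933-15377182: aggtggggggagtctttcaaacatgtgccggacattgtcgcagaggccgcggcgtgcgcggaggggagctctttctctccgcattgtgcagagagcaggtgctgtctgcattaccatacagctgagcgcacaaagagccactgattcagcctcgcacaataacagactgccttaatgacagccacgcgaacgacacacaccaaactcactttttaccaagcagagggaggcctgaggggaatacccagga
Notch3: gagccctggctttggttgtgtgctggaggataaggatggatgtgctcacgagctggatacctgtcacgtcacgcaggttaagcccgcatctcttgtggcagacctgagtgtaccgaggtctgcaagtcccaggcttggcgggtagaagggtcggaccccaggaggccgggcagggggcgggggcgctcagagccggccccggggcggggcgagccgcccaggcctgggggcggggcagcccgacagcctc
The motif was present on either strand in 1779 of 32851 such windows of all genes (5.42%). Of the 10 genes of the set, 8 matched a window (11 windows, since some have several starts), and 0 of the 11 held these letters. The other 2, *Hes1* and *Hey1*, had no window, so they were not searched. The list of Notch targets had 7 windows from 6 genes, and 9 listed targets, *Heyl* among them, had no window. Among the 7 windows, 3 held the motif, those of *Hes5*, *Hes7* and *Hey2*. The *Hes5* window held it at 2 positions, 226 and 83 bases before the start. A match is a description of letters and not a binding site.

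None of the 10 Notch genes passed the test for a change with age in either strain, and none passed a test of a difference between the strains. Between 20 weeks and 1 week, the lowest and highest of the 10 log ratios were -0.39 and 0.12 in BSG, and -0.87 and 0.07 in GSG, with standard errors of 0.13 to 0.25. *Dll1* in GSG was at the edge of the threshold (log ratio -0.87, adjusted p = 0.0506), and the next smallest p-values were those of *Jag2* in BSG and *Dll3* in GSG. Outside the set, the receptor *Notch3* fell in both strains and the target *Heyl* fell in GSG.

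**Figure D1:**
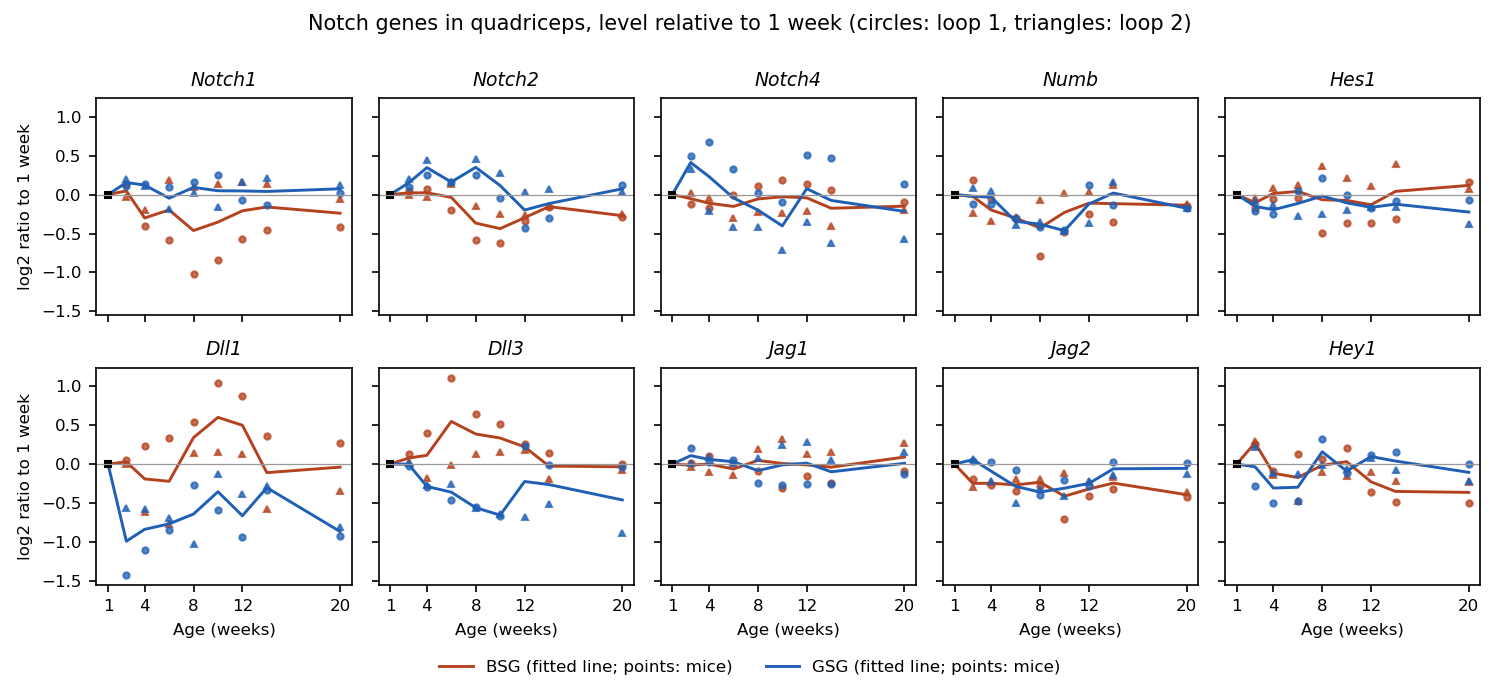
Log2 ratio to 1 week (vertical axis) by age in weeks (horizontal axis) for the 10 Notch genes; lines are the fitted levels of BSG and GSG, circles the mice of loop 1, triangles the mice of loop 2, and the square is the 1-week level, 0 by definition. Of the 20 pairs of gene and strain shown, *Dll1* in GSG and *Jag2* in BSG are the ones in which all 16 mice lie below 0.

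In the comparison of 20 weeks with 1 week, 0 of 10 Notch genes were called in BSG, where 104 of 8129 oligonucleotides were called in all (1.28%) and 69 of these were lower (0.849%). In GSG 0 of 10 were called, with 304 of 8129 in all (3.74%) and 246 lower (3.03%). A call is an adjusted p under 0.05 in limma's moderated test, with Benjamini-Hochberg adjustment over the 8129. At an unadjusted p under 0.05 there were 2 in BSG, *Jag2* and *Hey1*, beside 11.6% of all oligonucleotides, and 2 in GSG, *Dll1* and *Dll3*, beside 14.7%. Counts of 2 of 10 are close to these shares. For the mean of the 8 later ages against 1 week, 0 of 10 were called in BSG (0.0738% of all) and 0 of 10 in GSG (0.652% of all). The smallest adjusted p among the 10 was 0.752 in BSG and 0.358 in GSG in this comparison. For any change over the 9 ages (F test of the 8 later ages), 0 of 10 were called in BSG (0.0984% of all) and 0 of 10 in GSG (0.590% of all). The median log ratio of the 10 at 20 weeks was -0.14 in BSG and -0.14 in GSG, beside medians of -0.02 and -0.01 over all oligonucleotides.

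The receptors *Notch1*, *Notch2* and *Notch4* did not pass the test at 20 weeks in either strain, and the mice of a strain disagreed for some of them. *Notch1*, a receptor of satellite cells and endothelium, was at -0.42 and -0.06 in the BSG mice of 20 weeks (loop 1 first) and at 0.02 and 0.13 in the GSG mice. The fitted log ratio was -0.24 in BSG (95% CI -0.57 to 0.09, adjusted p = 0.644) and 0.07 in GSG (95% CI -0.25 to 0.40, adjusted p = 0.936). The lowest fitted *Notch1* level in BSG, -0.46 at 8 weeks, joined a mouse at -1.02 in loop 1 and a mouse at 0.09 in loop 2. From 4 to 20 weeks every BSG mouse of loop 1 lay below 1 week for *Notch1*, whereas 5 of the 8 later BSG mice of loop 2 lay above it. The fall in BSG loop 1 began on the array of 4 against 2.5 weeks, whose 2 *Notch1* spots disagreed, at 0.17 and -1.27. The mean *Notch1* level over the 8 later ages was -0.52 in BSG loop 1 and 0.05 in BSG loop 2, against 0.07 and 0.06 in loops 1 and 2 of GSG. The loops thus ran apart in BSG and close together in GSG, and the median gap between the mice of one age was 0.67 in BSG and 0.19 in GSG for *Notch1*, beside medians of 0.33 and 0.31 over all oligonucleotides.

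*Notch2*, which acts beside *Notch1* in satellite cells, had closer BSG mice at 20 weeks than *Notch1* and *Notch4*. At 20 weeks it was at -0.29 and -0.25 in BSG mice and at 0.12 and 0.03 in GSG mice, and the log ratio was -0.27 in BSG (95% CI -0.54 to 0.00, adjusted p = 0.433) and 0.07 in GSG (95% CI -0.20 to 0.35, adjusted p = 0.915). In BSG all mice from 8 weeks on lay below 1 week, with the lowest fitted level of -0.44 at 10 weeks. In GSG both mice lay above 1 week at 2.5, 4, 6 and 8 weeks, with fitted levels of 0.35 at 4 weeks and 0.35 at 8 weeks, and the level was -0.20 at 12 weeks, where the mice were at -0.43 and 0.03. *Notch4*, the receptor of endothelial cells, was at -0.10 and -0.20 in the BSG mice of 20 weeks and at 0.14 and -0.57 in the GSG mice. Its GSG loops ran apart, with means over the later ages of 0.32 in loop 1 and -0.37 in loop 2, and the fit at 20 weeks gave -0.15 for BSG (adjusted p = 0.944), and -0.22 for GSG with an adjusted p of 0.771.

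*Dll1*, the Delta-like ligand of muscle progenitors, lay below its 1-week level in all 16 later GSG mice. At 2.5 weeks the 2 GSG mice were at -1.42 and -0.56, at 4 weeks at -1.10 and -0.58, and at 6 weeks at -0.84 and -0.69. At 8 weeks they were at -0.26 and -1.02, at 10 weeks at -0.59 and -0.12, and at 12 weeks at -0.94 and -0.39. At 14 weeks they were at -0.33 and -0.28, and at 20 weeks at -0.93 and -0.80. The level was thus lowest at 2.5 weeks, where the fit gave -0.99 (SE 0.25, adjusted p = 0.087), and again low at 20 weeks, where it gave -0.87 (SE 0.25, 95% CI -1.38 to -0.35, unadjusted p = 0.00191, adjusted p = 0.0506). The later mice of a loop share their 1-week mouse, so the 16 values are not 16 independent comparisons, and 5.94% of all oligonucleotides were below 1 week in all 16 GSG mice. In BSG the *Dll1* values ranged from -0.77 to 1.04 with a median of 0.15, and 12 of 16 lay above 1 week. The BSG loops differed by up to 1.11 at one age (6 weeks), where the mice were at 0.33 and -0.77. At 20 weeks the BSG mice were at 0.27 and -0.35, and the log ratio was -0.04 (95% CI -0.55 to 0.47, adjusted p = 0.994). The *Dll1* call in GSG depended on the fit: the adjusted p lay between 0.00319 and 0.281 over 15 alternatives and was under 0.05 in 4 of them, with log ratios of -0.93 to -0.72. Without GSG loop 1 the log ratio was -0.80 and without GSG loop 2 it was -0.93. In the limma fit with 1 value per mouse in place of the arrays, the adjusted p was 0.167.

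*Dll3*, a Delta-like protein known from somite formation as an inhibitor of Notch signalling in the same cell, was lower than at 1 week in 14 of 16 later GSG mice and higher in 12 of 16 later BSG mice. At 20 weeks the mice were at 0.00 and -0.07 in BSG and at -0.04 and -0.88 in GSG. The log ratio was -0.03 in BSG (95% CI -0.44 to 0.37, adjusted p = 0.992) and -0.46 in GSG (95% CI -0.86 to -0.06, adjusted p = 0.233). The GSG value rested on 1 of the 2 spots and 1 of the 2 loops: it was -0.91 from the second spots and -0.01 from the first, and -0.88 without GSG loop 1 and -0.04 without GSG loop 2. The GSG mice of one age were close from 2.5 to 10 weeks, where the fitted level reached -0.65 with mice at -0.67 and -0.64. They were apart at 12 weeks, at 0.23 and -0.68. In BSG the highest value, 1.11, came from the loop 1 mouse of 6 weeks, and the loop 2 mouse of that age was at -0.01.

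*Jag2*, a Jagged ligand, lay below its 1-week level in all 16 later BSG mice, in which 3.94% of all oligonucleotides did so. The BSG values ranged from -0.71 to -0.12 with a median of -0.27, and the 2 mice of 20 weeks were at -0.42 and -0.36. The fitted log ratio at 20 weeks was -0.39 in BSG (SE 0.14, 95% CI -0.68 to -0.10, unadjusted p = 0.0102, adjusted p = 0.224). In GSG the mice of 20 weeks were at 0.01 and -0.12 (log ratio -0.05, adjusted p = 0.952), and the lowest fitted level was -0.36 at 8 weeks. *Jag1*, the Jagged ligand of vessels and many epithelia, stayed near its 1-week level. Its 16 later mice ranged from -0.31 to 0.33 in BSG and from -0.27 to 0.29 in GSG, and all fitted levels lay between -0.10 and 0.11. The log ratio of *Jag1* at 20 weeks was 0.09 in BSG (95% CI -0.19 to 0.37) and 0.01 in GSG (95% CI -0.27 to 0.29).

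*Numb*, the endocytic adaptor that lowers Notch signalling in the cell that inherits it, showed no called change over the ages. The F test gave an unadjusted p of 0.898 in BSG and 0.463 in GSG. Its lowest fitted level was -0.43 at 8 weeks in BSG, with mice at -0.79 and -0.07, and -0.46 at 10 weeks in GSG, with mice at -0.45 and -0.47. In BSG loop 2 the lowest mouse was that of 4 weeks, at -0.34. At 20 weeks the mice were at -0.15 and -0.12 in BSG and at -0.17 and -0.18 in GSG. The log ratio was -0.14 in BSG (95% CI -0.52 to 0.25, adjusted p = 0.942) and -0.18 in GSG (95% CI -0.56 to 0.21, adjusted p = 0.797). Over the 16 later mice, 12 lay below 1 week in BSG and 12 in GSG.

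The target genes *Hes1* and *Hey1*, repressors that are read as the output of the pathway, did not pass the test either. *Hes1* was at 0.16 and 0.07 in the BSG mice of 20 weeks and at -0.07 and -0.38 in the GSG mice. Its log ratio was 0.12 in BSG (95% CI -0.23 to 0.46, adjusted p = 0.944) and -0.22 in GSG (95% CI -0.57 to 0.12, adjusted p = 0.640). *Hes1* lay below 1 week in 8 of 16 later BSG mice and in 14 of 16 later GSG mice, with fitted levels that spanned 0.25 in BSG and 0.21 in GSG. *Hey1* was above 1 week in both BSG mice of 2.5 weeks, at 0.25 and 0.29, and below it in both BSG mice from 12 weeks on. At 20 weeks it was at -0.49 and -0.23 in BSG and at 0.00 and -0.21 in GSG, which gave log ratios of -0.36 in BSG (95% CI -0.73 to 0.00, adjusted p = 0.428) and -0.11 in GSG (95% CI -0.47 to 0.26, adjusted p = 0.899).

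The strains were compared in the change relative to 1 week, and 0 of 10 Notch genes passed any of the tests. In the mean of the 8 later ages the difference BSG minus GSG was 0.79 for *Dll1* (SE 0.36, 95% CI 0.05 to 1.54), with means of 0.11 in BSG and -0.68 in GSG. It was 0.55 for *Dll3* (SE 0.28, 95% CI -0.03 to 1.14), with means of 0.20 in BSG and -0.35 in GSG. Both differences moved with the arrays used. That of *Dll1* was 0.44 without BSG loop 1 and 1.14 without BSG loop 2, and without the 9 arrays whose duplicate spots correlated at under 0.3 it was 0.37, with a GSG mean of -0.21. That of *Dll3* was 0.35 without BSG loop 1 and 0.75 without BSG loop 2. *Dll1* had an unadjusted p of 0.0385 in this comparison and an adjusted p of 1.00, *Dll3* an unadjusted p of 0.0620, and 0 of 8129 oligonucleotides passed (0%), with 289 (3.56%) at an unadjusted p under 0.05. For the receptors the differences were -0.30 for *Notch1* (95% CI -0.77 to 0.17), -0.30 for *Notch2* (95% CI -0.70 to 0.10) and -0.07 for *Notch4* (95% CI -0.71 to 0.57). Those of *Jag1* (0.00, 95% CI -0.41 to 0.41) and *Numb* (0.00, 95% CI -0.56 to 0.55) were the nearest to 0. The temporal Hotelling test, which compares the 3 coefficients of a quadratic curve through the ages, called 0 of 10 and 0 of 8129 (0%). Its smallest unadjusted p-values among the 10 were 0.0382 for *Jag2* and 0.0404 for *Dll1*, beside 358 of 8129 (4.40%) under 0.05. The non-temporal test of the 8 ages without order called 0 of 10 and 0 of 8129 (0%), with unadjusted p = 0.0129 for *Notch2* and 0.0282 for *Dll1*, beside 127 of 8129 (1.56%). In the paper, the pairwise temporal test of BSG against GSG gave p-values under 0.05 for several genes, among them *Matn2* and *Hmgb2*. Its methods state a Benjamini-Hochberg correction. The 0 calls of the temporal test here do not reproduce that result, and the reason was not tested.

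The list of Notch pathway genes written around the 10 held 69 others, of which 47 were measured and 3 were called in any comparison, all of them lower at 20 weeks. These were *Notch3*, *Heyl* and *Dlk1*. At 20 weeks 2 of the 47 were called in BSG and 3 in GSG, beside 1.28% and 3.74% of all oligonucleotides. Counts of 0 in the lists that follow are close to these shares. The genes of receptor processing and trafficking (19 measured of 29, *Numb* included) and the nuclear factors (13 of 23) had 0 calls in either strain at 20 weeks. *Ncstn*, a subunit of gamma-secretase, was at -0.01 in BSG and -0.66 in GSG (adjusted p = 0.120), where the 2 mice were at 0.12 and -1.44. *Adam10*, the protease that makes the first activating cut, was at 0.21 in BSG and -0.21 in GSG, and *Rbpj*, the DNA-binding partner, at 0.08 in BSG and -0.12 in GSG. Of the 14 measured targets of 15, *Heyl* in GSG was the one call. *Hes5* was at -0.07 in BSG and 0.19 in GSG and *Hey2* at 0.32 in BSG and -0.22 in GSG, neither past the test, and both carry the RBPJ letters in the sequences shown. *Dlk1*, a Delta-like protein without the domain that activates Notch receptors, fell in both strains, with log ratios of -3.05 in BSG and -3.54 in GSG (adjusted p = 1.68e-08 for BSG and 6.25e-10 for GSG), and is among the newborn muscle genes used for the direction.

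*Notch3*, the receptor of vascular smooth muscle and pericytes, fell in both strains between 1 and 20 weeks. At 20 weeks the mice were at -1.19 and -0.55 in BSG and at -0.70 and -0.86 in GSG. The log ratio was -0.87 in BSG (SE 0.21, 95% CI -1.30 to -0.44, adjusted p = 0.0356) and -0.78 in GSG (SE 0.21, 95% CI -1.21 to -0.35, adjusted p = 0.0350). All 16 later mice of each strain lay below 1 week, with medians of -0.44 in BSG and -0.41 in GSG. The later mice of a loop share their 1-week mouse. Of all oligonucleotides, 3.94% in BSG and 5.94% in GSG lay below 1 week in all 16 mice. At 14 weeks the fitted level of *Notch3* was -0.63 in BSG and -0.64 in GSG. *Heyl*, a Hey-family target known in vascular smooth muscle and muscle progenitors, was at -0.92 and -0.24 in BSG mice and at -0.44 and -1.05 in GSG mice of 20 weeks. Its log ratio was -0.58 in BSG (95% CI -0.98 to -0.18, adjusted p = 0.164) and -0.75 in GSG (SE 0.19, 95% CI -1.14 to -0.35, adjusted p = 0.0254). *Dll4*, the endothelial ligand, was at -0.18 in BSG mice, with an adjusted p of 0.800, and at 0.24 in GSG mice, with an adjusted p of 0.563. The *Notch3* call held in 7 of 15 alternatives in BSG and in 7 of 15 in GSG, and that of *Heyl* in GSG in 9 of 15. In the limma fit with 1 value per mouse, *Heyl* in GSG lost its call (adjusted p = 0.0696). *Notch3* kept its calls in that fit (adjusted p = 0.0499 in BSG and 0.0281 in GSG). Without BSG loop 1 the *Notch3* log ratio in BSG was -0.55 (adjusted p = 1.00). Leaving out a loop of one strain cannot move the log ratio of the other strain, only the pooled variance and the degrees of freedom. On these terms the adjusted p of *Notch3* in BSG was 0.0916 without GSG loop 1 and 0.0983 without GSG loop 2. In GSG *Notch3* missed the threshold whichever of the 4 loops was left out (adjusted p from 0.0641 without BSG loop 2, with the log ratio unmoved by construction, to 0.572 without GSG loop 2, where the log ratio was -0.70). *Heyl* in GSG lost its call without BSG loop 1 (adjusted p = 0.0594, the log ratio again unmoved) and without GSG loop 2 (log ratio -0.44, adjusted p = 0.918).

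**Figure D2:**
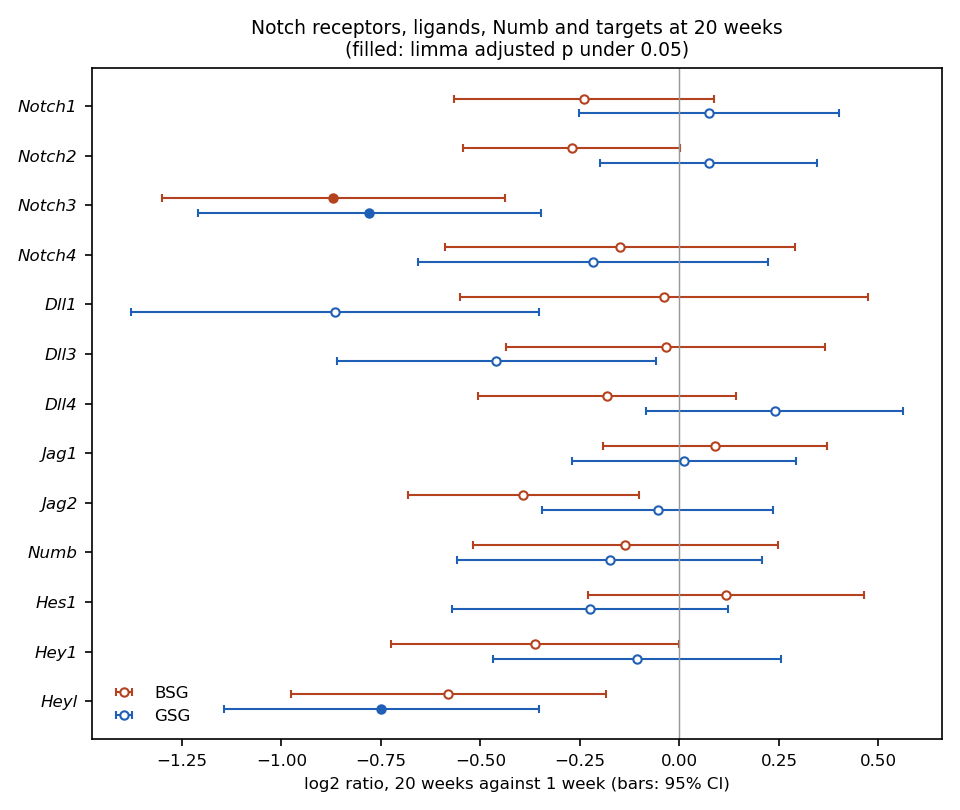
Log2 ratio of 20 weeks against 1 week (horizontal axis) with 95% confidence intervals for the 10 Notch genes and for *Notch3*, *Dll4* and *Heyl*, in BSG and GSG; filled points passed the limma test at an adjusted p under 0.05. *Notch3* in both strains and *Heyl* in GSG are filled, and *Dll1* in GSG is as far below 0 as *Notch3* but with a wider interval.

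Markers of other cell types moved between the same ages. Their calls stand beside 1.28% of all oligonucleotides called in BSG and 3.74% in GSG. In bulk muscle fewer cells of a type and less RNA per cell cannot be told apart. Of 10 measured endothelial markers, 2 fell in BSG and 2 in GSG, *Icam2* (-1.13 in BSG and -0.79 in GSG) and *Cldn5* (-0.999 in BSG and -1.07 in GSG), with list medians of -0.44 in BSG and -0.66 in GSG. *Pecam1* and *Cdh5* had log ratios of -0.70 and -0.67 in BSG and of -0.83 and -0.69 in GSG and did not pass. Of 5 measured smooth muscle and pericyte markers, 0 were called in BSG and 1 was called lower in GSG, *Mcam* (-1.19). The list medians were -0.51 in BSG and -0.55 in GSG. All 5 lay below 1 week in BSG, but only 3 of 5 in GSG, where the highest was at 0.19. The part of these markers in the *Notch3* and *Heyl* values was not tested. Of 10 satellite cell and myoblast markers 0 were called in either strain, with medians of -0.30 in BSG and -0.25 in GSG, and *Pax7*, the marker of satellite cells, was at -0.32 in BSG mice, with an adjusted p of 0.424, and at -0.24 in GSG mice, with an adjusted p of 0.541. Of 7 measured leukocyte markers, 0 were called in BSG (median 0.73) and 3 were higher in GSG (median 1.05). The 7 muscle fibre markers had 0 calls and medians of 0.26 in BSG and 0.37 in GSG. Lower calls were not limited to vessel markers. Of 6 measured fibroblast markers, 1 was called lower in BSG and 2 in GSG, with medians of -0.22 and -0.19. Of 4 measured Schwann cell markers, 1 was called lower in BSG and 1 in GSG, with medians of -0.06 and -0.02.

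**Figure D3:**
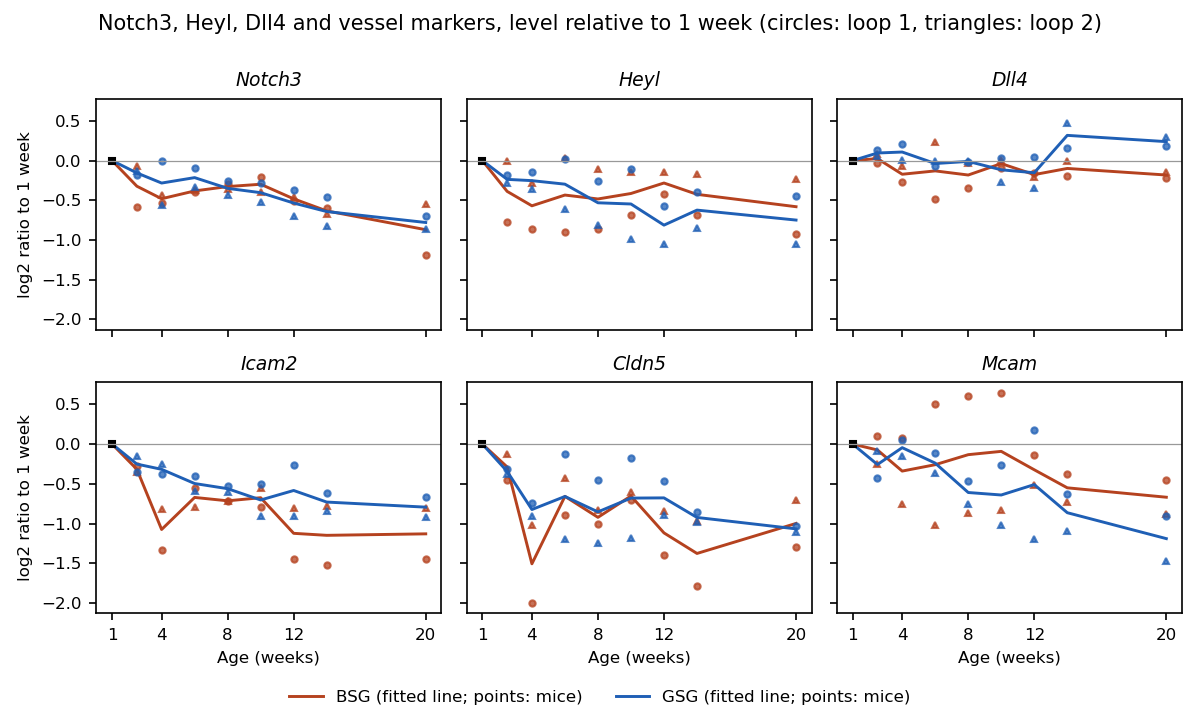
Log2 ratio to 1 week by age in weeks for *Notch3*, *Heyl*, *Dll4*, the endothelial markers *Icam2* and *Cldn5*, and *Mcam* from the smooth muscle and pericyte list. Lines are fitted levels of BSG and GSG and points are mice (circles loop 1, triangles loop 2). *Notch3* lies below 0 in all 16 later mice of each strain, which share the 1-week mouse of their loop. *Dll4* ends at -0.18 in BSG and 0.24 in GSG.

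For the 4 Notch genes with the smallest F-test p over the ages, the 3 genes with the most similar course were taken by Pearson's r over 32 values (8 ages, 2 loops and 2 strains). The values of a loop share arrays and a 1-week mouse, so r is a description only. *Dll1* was most like *Tdp2* (r = 0.92), *Ckb* (r = 0.89) and *Morf4l2* (r = 0.89), and its r with *Tdp2* was 0.85 within BSG and 0.84 within GSG. *Notch2* was most like *Abl2* (r = 0.89), *Slc5a1* (r = 0.85) and *Rprm* (r = 0.78). *Dll3* was most like *Usp9x* (r = 0.87), *Hoxc4* (r = 0.87) and *Mtx2* (r = 0.86). *Hey1* had lower values, with *Tomm40* (r = 0.70), *Dguok* (r = 0.67) and *Atp5a1* (r = 0.66), the last of them the alpha subunit of mitochondrial ATP synthase.

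The agreement of the 2 spots of an oligonucleotide differed among the 10 genes. It does not rank the genes by the precision of their levels. *Dll1*, whose spots agreed best, had the highest SE of the 10 at 20 weeks (0.25). *Notch2* (0.13) and *Jag1* (0.14), whose spots agreed least, had the lowest. Over the 36 arrays the duplicate spots of *Dll1* correlated at r = 0.83, at or above 92.9% of all oligonucleotides, and those of *Hey1* at 0.50 and *Hes1* at 0.42. *Notch1* (0.34) and *Jag2* (0.30) were near the median of 0.32 over all oligonucleotides. *Dll3* (0.18), *Numb* (0.15), *Notch4* (0.07), *Notch2* (-0.03) and *Jag1* (-0.11) lay below it. For these genes most of the variation of single spots from array to array was not shared by the 2 spots. The same holds for *Hes1*, *Notch1* and *Jag2*, and for an oligonucleotide at the median. *Notch3* (0.69) and *Heyl* (0.61) were above the median. Across whole arrays the duplicate r ranged from -0.10 to 0.77, and 9 of 36 arrays, 4 of them in BSG loop 1 and 4 in GSG loop 1, were below 0.3. Without these 9 arrays, 0 of 10 Notch genes were called in any of the limma comparisons.

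**Figure D4:**
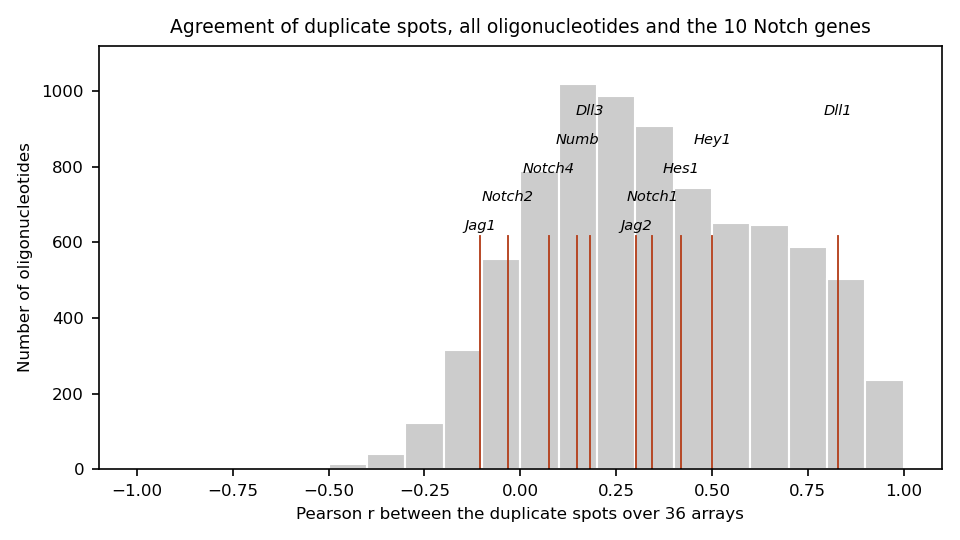
Number of oligonucleotides (vertical axis) by Pearson's r between their duplicate spots over 36 arrays (horizontal axis, bins of 0.1), with a line for each of the 10 Notch genes. *Dll1* stands at 0.83, far above the median of 0.32, and *Jag1* and *Notch2* lie at or below 0.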

How the data were processed

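Quadriceps RNA of 36 BSG and GSG mice was measured on 36 two-colour oligonucleotide arrays. By their methods, the authors normalised the channels with the smida package (spatial, dye and between-array effects) and deposited them as ratios on a log scale. The deposited values are log ratios, taken here as log2 since they reach -12.0 and 11.5; array medians lie between -0.06 and 0.06. Loops follow the numbers in the sample labels. Duplicate spots were averaged and the 80 Gapdh oligonucleotides counted as 1, which left 8129 rows (6752 with 1 gene symbol, 7 with several, 1370 with none); 0 values were missing and no filter was applied.

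Each strain was fitted with 8 parameters, the later ages against 1 week, over all 36 arrays with limma (version 3.58.1, lmFit and eBayes, 20 residual degrees of freedom) in R (version 4.3.3), with Benjamini-Hochberg adjustment over the 8129. The temporal (degree 2; 3 and 30 degrees of freedom) and non-temporal (8 and 20) Hotelling tests were written from the authors' equations, except that the non-temporal one compares the 8 changes from 1 week, where the authors' text sets its dimension to the number of ages, 1 week included. Per-mouse levels solve each loop alone. The scripts were tested on simulated data. The number of mice, 2 per age and strain, limits the precision. The p-values measure the spread between arrays, which the main fit takes as independent although each mouse lies on 2 arrays. Named outside the 10 are the pathway genes called in any comparison and the 3 most similar genes of 4 members; other pathway genes and the markers were named after their values were seen. The 10 genes and the lists were chosen with earlier results of these data known. Figures used Python (version 3.11.15) and matplotlib (version 3.10.9).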

Additional observations from a re-analysis of the deposited data

How the results depend on the processing

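Over the 15 alternatives to the limma fits, the count of Notch genes called was 0 of 10 throughout in BSG, and in GSG for the mean of the later ages. The difference BSG minus GSG and both Hotelling tests also kept 0 of 10 under each alternative run. At 20 weeks in GSG the count was 1 with a dye term, with the loop as a random block, with duplicate spots as separate observations and with oligonucleotides of 1 gene symbol only, each time *Dll1* at a log ratio of -0.87 (adjusted p = 0.0423, 0.0315, 0.00319 and 0.0483), and 1 with the second spots alone, which was *Dll3* (-0.91, adjusted p = 0.0184, against -0.01 with the first spots alone, adjusted p = 1.00). Treating duplicate spots as separate observations also gave 1 for any change over the ages in GSG, again *Dll1*. Leaving out each loop in turn gave 0 of 10 in all these counts.

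The number of oligonucleotides called over the whole table moved more. At 20 weeks the lowest and highest counts were 1 (without BSG loop 1) and 373 (duplicate spots as separate observations) against 104 in BSG, and 83 (without GSG loop 2) and 471 (duplicate spots as separate observations) against 304 in GSG. For the mean of the later ages they were 1 (without BSG loop 1) and 120 (without BSG loop 2) against 6 in BSG, and 3 (without discordant arrays) and 179 (1 value per mouse) against 53 in GSG. For any change over the ages they were 1 and 188 against 8 in BSG, and 12 and 335 against 48 in GSG. Without BSG loop 2 the mean difference between the strains had 41 calls and the temporal test 75, none of them among the 10. The Hotelling tests with a loop left out also pooled the variance over the strains, where the main tests used a variance per strain. The 75 calls thus reflect both changes, and their cause was not tested. Of 750 values of the 10 genes under alternatives, 55 moved by over 1 SE without a call and 59 had the other sign, none of them called. Duplicate spots limit the precision, and the sum of the 9 log ratios of a loop, 0 without dye effect or noise, had a median size of 0.93 to 0.97 and correlated between loops at r = 0.46 to 0.83 over oligonucleotides; the fitted levels are the same with and without a dye term. No paired analysis was possible because the labels number every array separately and the strains share no replicate number; the loop was fitted only as a random block (above).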
